A study of Mus musculus with 2 samples.

Results

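The RNA of 10 genes for liver carrier and secreted plasma proteins was followed in mouse liver tumours: Ttr, Alb, Rbp4, Spp2, Ambp, Trf, Serpina1a, Ahsg, Clu and Lect2. They were taken as a given list of symbols, which was drawn up with earlier results of these data known. Each symbol matched 1 row among the 32285 genes of both count matrices. The study compared tumours with a control hairpin (shCtrl, genotype label WT) and tumours with a short hairpin RNA against the splicing factor Srsf10 (shSrsf10), to learn how targeting this factor shapes tumour immunity. Each group was 1 library of droplet single-cell RNA from tumour tissue, and the labels state neither the strain, age and number of the mice nor whether animals were pooled. The series text describes digested and sorted tumours and a kit that reads the 5' end, while the sample text describes a liver suspension spun slowly so that hepatocytes stay behind and a kit that reads the 3' end. The labels do not say which description applies.

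The liver makes most proteins of blood plasma. Hepatocytes translate them into the endoplasmic reticulum, pass them through the Golgi and release them without storage, and liver tumours keep this programme to very different degrees. Transthyretin (Ttr) carries thyroxine and holds retinol-binding protein (Rbp4) in the circulation, albumin (Alb) carries fatty acids and many drugs, and transferrin (Trf) carries iron. Their genes are classic targets of the liver-enriched factors HNF4, FOXA and C/EBP.

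Tumour barcodes were those with at least 5000 UMIs (unique molecular identifiers, each standing for 1 captured transcript), at least 5 UMIs of the keratins Krt8 and Krt18 together and 0 of the leukocyte gene Ptprc. This gave 6462 of 9920 barcodes and 134144973 UMIs in shCtrl, and 3765 of 7553 barcodes and 118239156 UMIs in shSrsf10. The median depth was 18174.5 and 27498 UMIs per barcode. All 8 markers of tumour and liver epithelium had UMIs, though the rule itself asked for Krt8 and Krt18. All 7 T cell and all 6 macrophage markers also had UMIs in shCtrl tumour barcodes, so presence alone does not mark the class. Afp was at 1604 and 1114 CPM (UMIs of the gene per 1000000 UMIs of the tumour barcodes of that library). Krt19 was at 359 and 391 CPM and Gpc3 at 146 and 192 CPM. The hairpin's target Srsf10 had 45.5 CPM in shCtrl and 19.7 CPM in shSrsf10. The 2 libraries shared 67 barcode sequences, and 23 of these were tumour barcodes in both.

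With 1 library a group there was no replicate check and no test between groups was made. Intervals in this text are 95% intervals for counting error alone, and a log2 ratio is the shSrsf10 CPM over the shCtrl CPM. A gene is counted as lower or higher where its CPM differed at least 1.5-fold. UMIs tag 1 end of each transcript, so levels of different genes are set side by side without division by gene length.

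Promoter sequence is shown for 4 members whose RNA stood at different places in the comparison: Spp2 and Serpina1a, which were over 1.5-fold lower in shSrsf10, Alb, which was a little lower, and Lect2, which was a little higher. Each run is the stretch of the 250 bases upstream of the RefSeq start (build GRCm38.p6) that lies outside the annotated gene, 5′ to 3′ on the gene's own strand, with capitals for motif matches.
Alb promoter: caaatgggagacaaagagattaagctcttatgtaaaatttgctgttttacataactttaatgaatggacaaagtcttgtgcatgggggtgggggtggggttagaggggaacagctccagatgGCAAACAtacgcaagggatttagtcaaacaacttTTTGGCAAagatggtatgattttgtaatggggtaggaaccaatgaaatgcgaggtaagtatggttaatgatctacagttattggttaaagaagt
Serpina1a promoter: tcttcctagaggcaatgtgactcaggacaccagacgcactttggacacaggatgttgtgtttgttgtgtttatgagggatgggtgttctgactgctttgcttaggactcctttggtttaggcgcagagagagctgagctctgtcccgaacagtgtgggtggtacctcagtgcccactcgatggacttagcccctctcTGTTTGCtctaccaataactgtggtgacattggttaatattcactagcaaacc
Lect2 promoter: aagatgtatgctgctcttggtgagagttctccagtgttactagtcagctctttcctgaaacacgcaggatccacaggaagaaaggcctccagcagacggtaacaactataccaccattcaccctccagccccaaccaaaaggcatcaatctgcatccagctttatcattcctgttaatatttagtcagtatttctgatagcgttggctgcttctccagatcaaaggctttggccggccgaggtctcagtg
Spp2 promoter: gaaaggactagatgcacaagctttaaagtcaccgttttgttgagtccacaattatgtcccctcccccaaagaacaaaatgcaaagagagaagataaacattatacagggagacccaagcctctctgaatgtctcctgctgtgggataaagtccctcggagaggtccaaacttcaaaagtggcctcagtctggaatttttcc
They lie at chr5:90460620-90460869 (+ strand, Alb), chr12:103863620-103863869 (- strand, Serpina1a), chr13:56548539-56548788 (- strand, Lect2) and chr1:88406760-88406960 (+ strand, Spp2). The capitals mark, on either strand, the FOXA letters TGTTTNC and the C/EBP letters TTGCNNAA. Alb held 1 match of each, from -128 to -122 and from -94 to -87 relative to the start. Serpina1a held a FOXA match from -53 to -47.

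RefSeq promoters were used for 7 of the 10 members in 8 windows, since Rbp4 has 2 starts. The search left out chromosome 18, where Ttr lies, so Ttr has no window here whether or not RefSeq holds one. None was at hand for Trf or Clu. TGTTTNC occurred in 17.8% of 32851 mouse promoters of the same length and TTGCNNAA in 9.56%. Ambp held a FOXA match from -16 to -10, and Ahsg held a FOXA match from -79 to -73 and a C/EBP match from -32 to -25. One Rbp4 window held a C/EBP match and the TATA letters TATAAA, which 12.4% of promoters hold, and the other a FOXA match. The Rbp4 window with TATAAA and the Ambp and Ahsg windows lay wholly inside the annotated gene. Spp2 and Lect2 held none of the letters searched, and the HNF4 letters CAAAGTCCA, present in 0.384% of promoters, occurred in no member window. The members without a match thus included Spp2, over 1.5-fold lower in shSrsf10, and Lect2, a little higher.

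In tumour barcodes the members together held 1.23% of all UMIs in shCtrl and 0.824% in shSrsf10, with medians per barcode of 1.16% and 0.740%. Of the 10 members, 4 were at least 1.5-fold lower in shSrsf10 (Ttr, Spp2, Ambp and Serpina1a), against 12.4% of the 15004 genes with at least 20 UMIs over both libraries. None was at least 1.5-fold higher, against 9.59% of all genes, and 6 lay between. Because the list was drawn up with earlier results of these data known, these counts describe the list only. The median log2 ratio was -0.41 for the members and -0.05 for all genes. The order of the levels changed with it. In shCtrl it ran Rbp4, Ttr, Trf, Alb, Clu, Spp2, Ambp, Lect2, Ahsg and Serpina1a, and in shSrsf10 Ttr came after Trf and Alb, and Lect2 stood above Spp2 and Ambp. No 2 neighbours in either order had overlapping counting intervals.

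**Figure D1:**
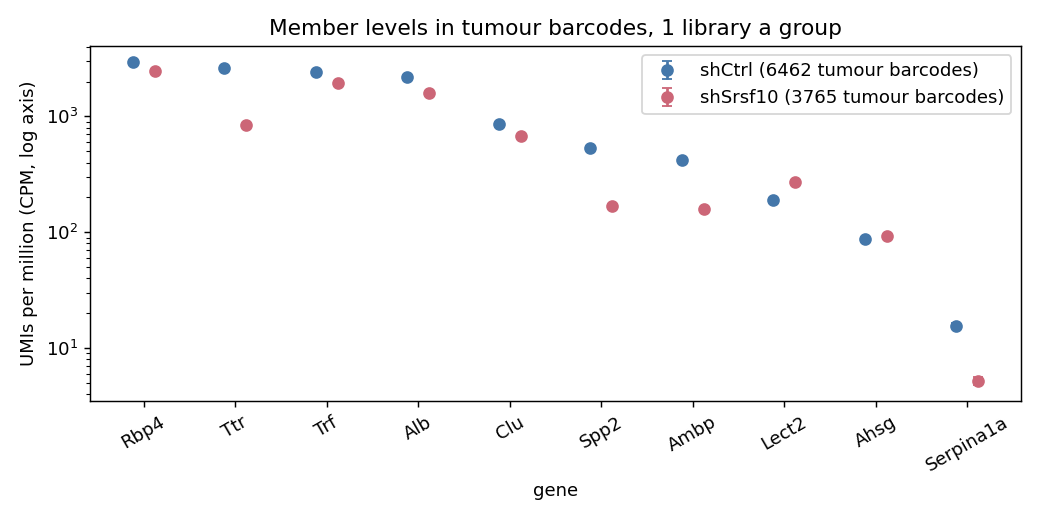
Level of each member in the tumour barcodes of the shCtrl library (blue, 6462 barcodes) and the shSrsf10 library (red, 3765 barcodes), as CPM on a log axis. Bars are exact Poisson intervals at 95% and are mostly smaller than the points. Ttr, Spp2, Ambp and Serpina1a are set apart between the libraries, while Rbp4, Trf, Alb, Clu and Ahsg lie close together and Lect2 is higher in shSrsf10.

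The pair that carries retinol and thyroxine differed in size of change. Ttr (ENSMUSG00000061808) had 354401 UMIs and 2642 CPM (2633 to 2651) in shCtrl, and 99297 UMIs and 839.8 CPM (834.6 to 845.0) in shSrsf10. Its log2 ratio was -1.65 (-1.66 to -1.64). Rbp4 (ENSMUSG00000024990, chromosome 19, 38116629 to 38125281, - strand of GRCm38), the retinol carrier that travels bound to transthyretin, had 2939 CPM (2929 to 2948) and 2491 CPM (2482 to 2499.6), a log2 ratio of -0.24 (-0.25 to -0.23). In shCtrl there were 0.899 Ttr UMIs for each Rbp4 UMI, and in shSrsf10 0.337. Ttr made up 21.5% of the members' UMIs in shCtrl and 10.2% in shSrsf10, where Rbp4 made up 23.9% and 30.2%. The receptor of the complex's retinol carrier, Stra6, had 89.5 CPM in shCtrl and 98.6 CPM in shSrsf10.

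The drop of Ttr appeared both in how many barcodes held the RNA and in how much they held. To compare libraries of different depth, each tumour barcode was thinned at random to 5000 UMIs. In shCtrl 88.5% (87.7 to 89.3) of thinned tumour barcodes held a Ttr UMI, and in shSrsf10 57.9% (56.3 to 59.5), against 96.3% and 80.1% at full depth. Where it was seen, the mean was 15.4 and 8.10 UMIs, and 49.9% of shCtrl but 16.2% of shSrsf10 barcodes held at least 10. At full depth the level per barcode was 114 CPM at the 10th percentile, 1916 at the median and 6500 at the 90th percentile in shCtrl. In shSrsf10 these were 0, 199 and 2785 CPM. The 2 distributions overlapped: the 75th percentile in shSrsf10, at 1129 CPM, was above the 25th percentile in shCtrl, at 519 CPM. Rbp4, by contrast, was seen in 99.8% and 99.2% of thinned barcodes, with a median of 13 and 10 UMIs.

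**Figure D2:**
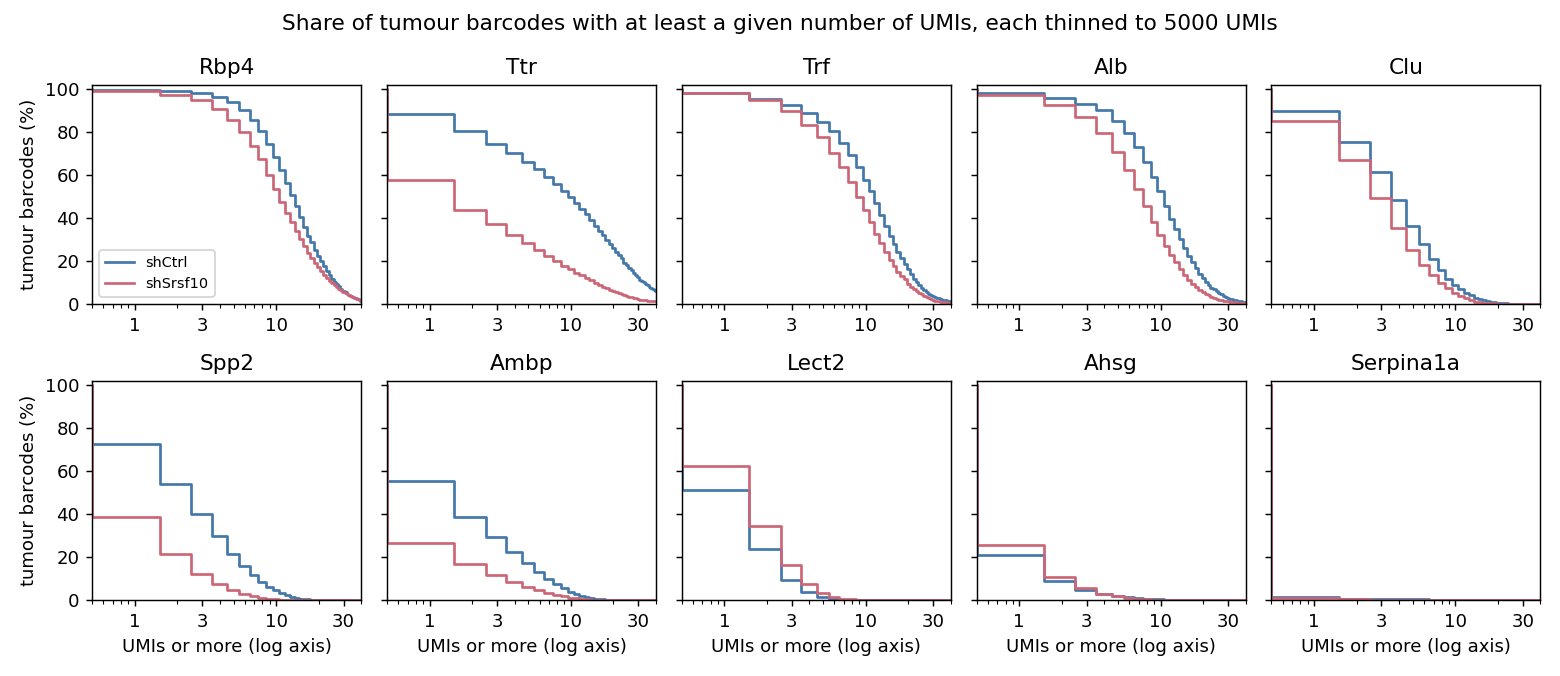
Share of tumour barcodes (percent) that hold at least the number of UMIs on the log axis, for each member, after thinning every barcode to 5000 UMIs, in shCtrl (blue) and shSrsf10 (red). The lines for Ttr, Spp2 and Ambp part already at 1 UMI, at 88.5% against 57.9% for Ttr, while those for Rbp4, Trf and Alb start together near 100% and part only at higher counts. Lect2 and Ahsg are higher in shSrsf10 at 1 UMI, and Serpina1a is near 0 in both.

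Spp2 and Ambp were lower to a similar degree as Ttr. Spp2 (ENSMUSG00000026295, chromosome 1, 88406961 to 88426438, + strand) encodes a secreted phosphoprotein of the cystatin superfamily that is found in bone matrix. It had 535 CPM (531 to 539) in shCtrl and 170.1 CPM (167.8 to 172.5) in shSrsf10, a log2 ratio of -1.65 (-1.68 to -1.63). Ambp (ENSMUSG00000028356, chromosome 4, 63143275 to 63154799, - strand) encodes a precursor that is cut into the heme-binding lipocalin alpha-1-microglobulin and the protease inhibitor bikunin. It had 417 CPM (414 to 421) and 159 CPM (157 to 161), a log2 ratio of -1.39 (-1.42 to -1.37). After thinning, the share of barcodes with Spp2 was 72.8% (71.7 to 73.9) in shCtrl and 38.9% (37.3 to 40.5) in shSrsf10. For Ambp it was 55.4% (54.2 to 56.6) and 26.6% (25.2 to 28.0). The median shSrsf10 tumour barcode thus held no UMI of either gene after thinning. Where Ambp was seen, the means were closer, at 3.87 and 3.23 UMIs, than for Spp2, at 3.79 and 2.39 UMIs.

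The bulk carriers were lower by less than 1.5-fold. Alb (ENSMUSG00000029368, chromosome 5, 90460897 to 90476602, + strand) had 2208 CPM (2200.3 to 2216) in shCtrl and 1598 CPM (1591 to 1605) in shSrsf10, a log2 ratio of -0.47 (-0.48 to -0.46). Trf (ENSMUSG00000032554, chromosome 9, 103204001 to 103230444, - strand) had 2404 CPM (2396 to 2412) and 1938 CPM (1930.3 to 1946), a log2 ratio of -0.31 (-0.32 to -0.30). Clu (ENSMUSG00000022037, chromosome 14, 65968483 to 65981547, + strand) encodes clusterin, an extracellular chaperone that travels with lipoproteins. It had 861 CPM (856 to 866) and 678 CPM (674 to 683), a log2 ratio of -0.34 (-0.36 to -0.33). Nearly every tumour barcode held Alb and Trf in both libraries, at 98.3% and 97.2% for Alb and 98.1% and 98.2% for Trf after thinning. The difference therefore lay in the amount per barcode, with median thinned counts of 10 and 7 UMIs for Alb and 11 and 9 for Trf. Clu was seen in 89.8% (89.1 to 90.6) and 85.2% (84.0 to 86.3).

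The only members with more RNA in shSrsf10 were Lect2 and Ahsg. Lect2 (ENSMUSG00000021539, chromosome 13, 56542464 to 56548502, - strand) encodes a secreted hepatokine first known as a neutrophil attractant, and it is a target of beta-catenin in liver. It had 191 CPM (189 to 194) in shCtrl and 269 CPM (266 to 272) in shSrsf10, a log2 ratio of 0.49 (0.47 to 0.51). Ahsg (ENSMUSG00000022868, chromosome 16, 22891277 to 22899449, + strand) encodes fetuin-A, which binds calcium phosphate in plasma. It had 87.0 CPM (85.4 to 88.6) and 93.1 CPM (91.4 to 94.9), a log2 ratio of 0.10 (0.06 to 0.14). After thinning, Lect2 was seen in 51.1% (49.8 to 52.3) and 62.3% (60.7 to 63.9) of barcodes, and Ahsg in 20.9% (19.9 to 21.9) and 25.8% (24.4 to 27.2). Where Ahsg was seen, the mean was 2.12 UMIs in shCtrl and 1.97 in shSrsf10, so the higher share was not matched by a higher amount.

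Serpina1a (ENSMUSG00000066366, chromosome 12, 103853589 to 103863562, - strand) stood apart from the rest because few barcodes held nearly all of its RNA. It encodes an alpha-1-antitrypsin, the plasma inhibitor of neutrophil elastase, and belongs to a cluster of near-identical mouse copies. Its level was 15.6 CPM (15.0 to 16.3) in shCtrl and 5.24 CPM (4.83 to 5.66) in shSrsf10, a log2 ratio of -1.58 (-1.71 to -1.45). At full depth 201 of 6462 shCtrl barcodes, 3.11%, and 2.34% of shSrsf10 barcodes held a UMI. The top 1% of barcodes held 93.1% of its UMIs in shCtrl and 91.8% in shSrsf10. The 5 shCtrl barcodes with most of it held 156, 153, 136, 104 and 103 UMIs, and the 5 shSrsf10 barcodes 79, 67, 65, 62 and 57. The 5 shSrsf10 barcodes also held 632, 496, 9, 2 and 1 UMIs of 14 mature hepatocyte markers, and the 5 shCtrl barcodes 1, 1, 3, 1 and 11. Without the 10 barcodes of each library with most Serpina1a the log2 ratio was -2.49, and in barcodes of 10000 to 40000 UMIs it was -1.24. Without the 13 shCtrl and 9 shSrsf10 barcodes where mature hepatocyte markers made up at least 0.1% of UMIs it was -2.01.

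Of the 31-base words in Serpina1a transcripts, 61.5% also occur in a transcript of Serpina1b, Serpina1c, Serpina1d or Serpina1e, so counts among these copies are uncertain. Serpina1e was lower, at 2.15 and 0.431 CPM, and so was Serpina1c, at 4.56 and 2.17 CPM. Serpina1b was the most abundant copy, at 39.8 and 33.2 CPM, a log2 ratio of -0.26 (-0.32 to -0.20), and Serpina1d had no UMI in either library. The target enzyme of these inhibitors, Elane, had 8 UMIs in shCtrl and 156 in shSrsf10 tumour barcodes, where 5 neutrophil markers summed to 22.3 and 30.3 CPM.

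Because shSrsf10 tumour barcodes were deeper, the ratios were also taken within 4 depth ranges (5000 to 10000, 10000 to 20000, 20000 to 40000 and at least 40000 UMIs). Ttr gave log2 ratios of -1.09, -1.46, -1.57 and -1.60 from the shallowest to the deepest range. Spp2 gave -1.18, -1.50, -1.56 and -1.65, and Ambp -1.05, -1.32, -1.28 and -1.43. All 3 were past 1.5-fold in each range, and their ratios were smallest in size in the shallowest, which held 1077 shCtrl and 227 shSrsf10 barcodes. Alb ran from -0.40 to -0.35 and Trf from -0.30 to -0.15, and Lect2 stayed above 0 at 0.29 to 0.60. Lect2 from 10000 to 20000 UMIs and Ahsg from 5000 to 10000 UMIs were past 1.5-fold higher. Ahsg changed sign across depth, from 0.63 (0.41 to 0.84) in the shallowest to -0.06 (-0.14 to 0.02) in the deepest barcodes. Its CPM was similar in all shCtrl ranges, at 81.6 to 91.7, and went down in shSrsf10 from 136 in the shallowest to 79.4 in the deepest range.

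**Figure D3:**
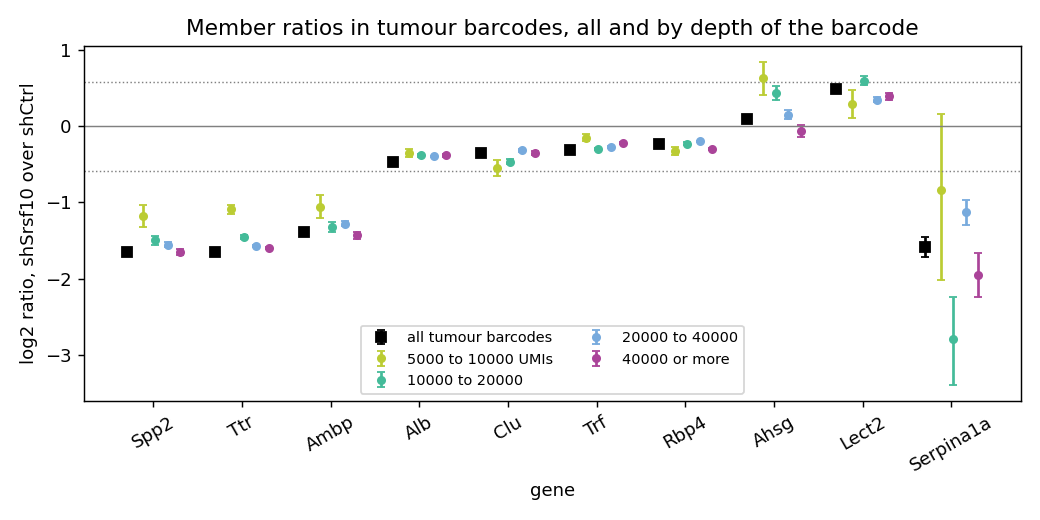
Log2 ratio of shSrsf10 over shCtrl for each member in all tumour barcodes (black squares) and within 4 ranges of UMIs per barcode (coloured circles), with exact conditional binomial intervals at 95%. Dotted lines mark 1.5-fold. Spp2, Ttr and Ambp lie below the lower line in every range, Ahsg moves from 0.63 to -0.06 with depth, and Serpina1a has wide intervals.

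Other RNA in the tumour barcodes also differed between the libraries. All 13 measured interferon gamma-induced genes of 14 listed were at least 1.5-fold higher in shSrsf10, with a median log2 ratio of 2.17, the largest being Gbp2 at 4.08 and 34.9 CPM. Marker RNA of T cells was higher for 7 of 7 genes, summing to 5.41 CPM in shCtrl and 19.9 CPM in shSrsf10. Macrophage marker RNA was lower for 5 of 6 genes, summing to 13.0 and 5.73 CPM, with Clec4f at 0 in shSrsf10. The 3 fibroblast markers summed to 9.56 and 69.9 CPM, of which Dcn made up 8.41 and 67.3 CPM, and 2 red cell genes summed to 2.39 and 26.0 CPM. The 14 mature hepatocyte markers summed to 76.9 and 62.8 CPM, and all 14 had UMIs in both libraries. Of the 11 with at least 20 UMIs, 6 were lower and 3 higher, with a median log2 ratio of -0.82. Cyp1a2, which oxidizes drugs and caffeine, went with the lower members, at 26.7 and 6.22 CPM, and Ass1 of the urea cycle was at 11.5 and 19.8 CPM. The members summed to 12300 and 8241 CPM. As a check, barcodes were left out that held any UMI of Cd3d, Cd3e, Cd3g, C1qa, C1qb or C1qc, or S100a8 and S100a9 at 1% of UMIs or more. This removed 644 barcodes in shCtrl and 512 in shSrsf10, and kept those with fewer neutrophil UMIs or with other immune markers only. Ttr then gave -1.63 and Spp2 -1.61. Without the barcodes rich in mature hepatocyte markers Ttr gave -1.68. The part of fibroblast and red cell RNA in the members' ratios was not tested, nor was that of hepatocyte RNA beyond this.

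The members were set against the interferon response of the same barcode, counted as UMIs of the 14 interferon gamma-induced genes in the 5000 thinned UMIs. In shCtrl 3095 barcodes held 0, 3122 held 1 to 4 and 245 held at least 5, and in shSrsf10 these were 320, 1862 and 1583. Ttr was higher in barcodes with more interferon RNA within each library. Its level was 2452, 2991 and 3029 CPM from the lowest to the highest bin in shCtrl, and 566, 863 and 1103 CPM in shSrsf10. The log2 ratio between libraries was -2.11 (-2.21 to -2.02), -1.79 (-1.83 to -1.76) and -1.46 (-1.51 to -1.40), so Ttr was lower in shSrsf10 at every level of interferon RNA, and least so at the highest. Spp2 gave -1.85, -1.74 and -1.52, and Ambp -1.65, -1.32 and -1.06. Within libraries Ambp had no common slope, at 444, 416 and 381 CPM in shCtrl and 142, 167 and 183 CPM in shSrsf10.

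Rbp4 and Clu were lower in barcodes with more interferon RNA in both libraries. Rbp4 was at 3087, 2767 and 2311 CPM across the bins in shCtrl and at 3236, 2680 and 2135 CPM in shSrsf10. Its log2 ratio within bins was 0.07 (0.03 to 0.11), -0.05 (-0.07 to -0.02) and -0.11 (-0.17 to -0.06), each nearer to 0 than the -0.22 over all thinned barcodes. Clu was at 882, 852 and 594 CPM in shCtrl and 752, 723 and 574 CPM in shSrsf10. Alb showed little slope, at 2231, 2364 and 2322 CPM in shCtrl and 1599, 1709 and 1665 CPM in shSrsf10, with a log2 ratio from -0.48 to -0.47 in the bins. Barcodes with more interferon RNA were not deeper: the median depth of the 3 bins was 18189, 18249.5 and 16604 UMIs in shCtrl and 27416, 27876.5 and 27141 in shSrsf10.

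**Figure D4:**
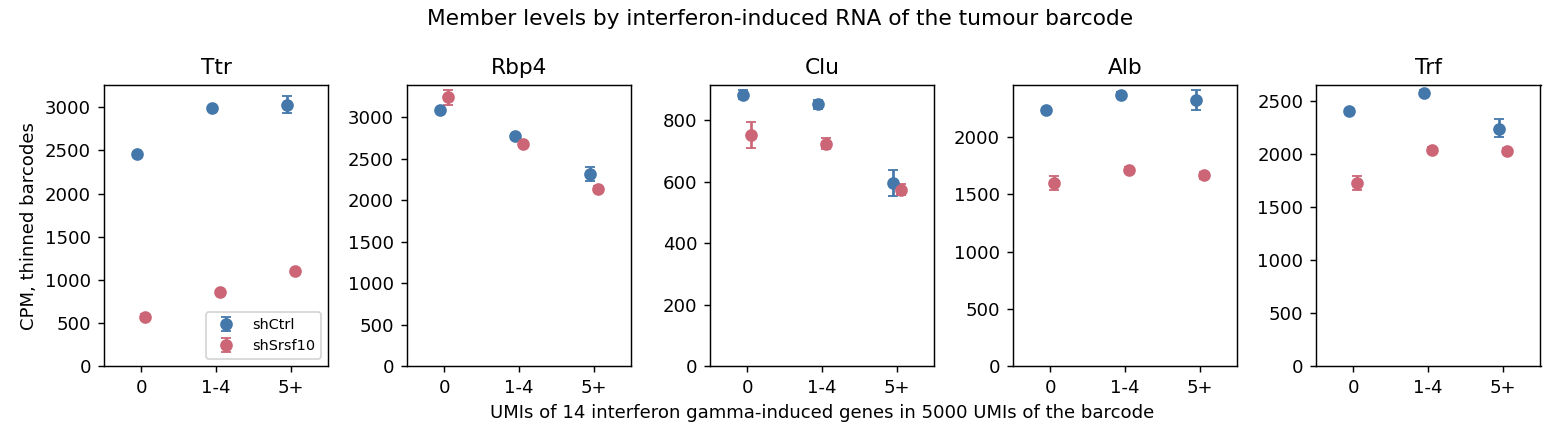
CPM of 5 members in tumour barcodes grouped by how many UMIs of 14 interferon gamma-induced genes they held after thinning to 5000 UMIs (0, 1 to 4, 5 or more), in shCtrl (blue) and shSrsf10 (red), with exact Poisson intervals at 95% and axes from 0. Ttr is higher in the upper bins of both libraries (2452 to 3029 and 566 to 1103 CPM), Rbp4 and Clu are lower there, and the gap between the libraries is wide for Ttr, nearly constant for Alb and narrow for Rbp4.

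The members also varied among themselves from barcode to barcode. On log counts of thinned barcodes (n = 6462 and 3765, which share their library and thinned depth), the highest correlations were Alb with Trf, at r = 0.61 in shCtrl and 0.56 in shSrsf10, and Ttr with Spp2, at 0.59 and 0.55. Spp2 with Ambp reached 0.41 and 0.44. Rbp4 did not follow its partner Ttr, at -0.04 and 0.13, and was slightly opposed to Lect2, at -0.07 and -0.10. Of 3182 other genes seen in at least 10% of thinned barcodes, those most alike to the summed members in both libraries were Apoe (0.66 and 0.64), Afp (0.57 and 0.57), Igfbp1 (0.50 and 0.62), Fgb (0.43 and 0.53) and Fn1 (0.41 and 0.44). The most common number of members seen in a thinned barcode was 7 of 10 in shCtrl, in 30.8% of barcodes, and 5 of 10 in shSrsf10, in 23.7%.

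Barcodes that held RNA of Apoa1, the main protein of high-density lipoprotein, held more of most members. After thinning, 1188 of 6462 shCtrl and 516 of 3765 shSrsf10 barcodes held an Apoa1 UMI. In shCtrl, Serpina1a had 79.0 CPM in them against 1.44 CPM in the others, Ahsg 237 against 55.2 CPM and Ambp 813 against 342 CPM. In shSrsf10, Serpina1a had 37.6 against 0.308 CPM, Ahsg 240.3 against 79.4 CPM and Ambp 546 against 112 CPM. The major carriers were higher with Apoa1 too: in shCtrl Alb had 2903 against 2162 CPM, Rbp4 3537 against 2760.2 CPM and Trf 3167 against 2325 CPM. In shSrsf10 these were 2124 against 1611, 3084 against 2405 and 2733 against 1892 CPM, and Ttr had 1509 against 849 CPM there and 2824 against 2714 CPM in shCtrl. Lect2 was lower in them, at 168 against 183 CPM in shCtrl and 226 against 258 CPM in shSrsf10, and so was Clu, at 743 against 882 and 595 against 674 CPM. For Ttr the gap between the libraries was smaller in the barcodes with Apoa1, at a log2 ratio of -0.90 (-0.95 to -0.85) against -1.68 (-1.70 to -1.65). The same held for Spp2, at -0.72 against -1.78, and Ambp, at -0.57 against -1.61. It was not smaller for Alb, at -0.45 against -0.42, and was alike for Rbp4, at -0.198 against -0.199.

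Among 40 other plasma protein genes, 35 had at least 20 UMIs, of which 14 were at least 1.5-fold lower in shSrsf10, 2 higher and 19 between. Their median log2 ratio was -0.35. Pzp, a broad protease inhibitor, was at 41.3 and 13.3 CPM, a log2 ratio of -1.64, and Apoc3, which slows the clearance of triglyceride-rich particles, at 8.79 and 3.48 CPM, a log2 ratio of -1.33. The fibrinogen chains differed from each other, with Fgg at 57.7 and 24.1 CPM and Fgb at 562 and 525 CPM. The 2 higher genes were scarce, with Apoa4 at 0.253 and 0.541 CPM and Itih4 at 0.999 and 1.60 CPM. Hpx, the heme carrier, was at 430 and 458 CPM.

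Of 13 positive acute phase genes, which the liver makes more of in inflammation, 9 were measured, 2 lower and 3 higher, with a median of 0.22. Hp, the haemoglobin carrier, had 51.8 and 101 CPM and Il1rn, the interleukin-1 receptor antagonist, 10.0 and 23.0 CPM. Serpina3n had 0.760 and 0.279 CPM, and Saa1 16 and 5 UMIs. The most abundant of the list in shCtrl, Lcn2 and Lbp, were lower by less than 1.5-fold, at 204 and 139 CPM and at 103 and 85.9 CPM. Fgl1 was higher by less than that, at 74.7 and 87.2 CPM. Liver transcription factors gave 4 lower, 1 higher and 12 between of 17, with a median of -0.24. Cebpd was at 3.74 and 0.913 CPM, a log2 ratio of -2.03 (-2.35 to -1.73), Cebpb at 37.7 and 15.3 CPM, a log2 ratio of -1.30 (-1.38 to -1.22), and Nr2f6 at 43.2 and 22.7 CPM, a log2 ratio of -0.93. Hnf4a was at 35.8 and 24.3 CPM, short of 1.5-fold.

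Receptors and partners of the members gave 2 lower, 1 higher and 11 between of 14 measured, with a median of -0.29. The higher gene was Elane, the neutrophil elastase named above, at 8 and 156 UMIs. The transferrin receptor Tfrc had 16.0 and 11.7 CPM, Tfr2, its liver relative, 0.499 and 0.288 CPM, and Insr 13.5 and 8.86 CPM. None of the 23 genes for entry into the endoplasmic reticulum and folding there was past 1.5-fold, with a median of -0.07. The largest difference among them was the chaperone Hspa5, at 443 and 335 CPM, a log2 ratio of -0.40 (-0.42 to -0.38).

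Member RNA was also found in immune barcodes. T barcodes (at least 2 UMIs of Cd3d, Cd3e and Cd3g) numbered 386 in shCtrl and 2107 in shSrsf10, neutrophil barcodes (S100a8 and S100a9 at least 1% of UMIs) 160 and 301, and macrophage barcodes (at least 3 UMIs of C1qa, C1qb and C1qc) 494 and 180. Median depths were 2263.5 and 2687, 711.5 and 804, and 2627 and 4074.5 UMIs. Their summed member level was 44.6% and 43.4% of the tumour level in T, 37.0% and 19.96% in neutrophil and 56.2% and 64.0% in macrophage barcodes. These rules do not bar keratin RNA, and some barcodes met the tumour rule too: 20 and 82 T barcodes and 61 and 22 macrophage barcodes. No doublet caller was run.

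Limiting the classes to barcodes with 0 UMIs of Krt8 and Krt18 lowered the summed level in all 3, least in shSrsf10 neutrophil barcodes. It was then 6.81% of the tumour level in 218 shCtrl T barcodes and 3.44% in 1250 shSrsf10 T barcodes. It was 10.97% and 5.18% in 226 and 91 macrophage barcodes, and 17.4% and 13.4% in 101 and 232 neutrophil barcodes, the shallowest class. A limit of 0 UMIs is stricter in deeper barcodes. Median depths were 1757.5 and 2303 UMIs in these T and 1679 and 2436 UMIs in these macrophage barcodes, so the libraries were not filtered alike. Ttr in such T barcodes was 157 CPM in shCtrl and 31.5 CPM in shSrsf10, or 5.95% and 3.76% of its tumour level. Thinned to 1000 UMIs, the share of T barcodes with a Ttr UMI was 18.8% (13.5 to 25.2) in shCtrl and 3.35% (2.41 to 4.54) in shSrsf10, where tumour barcodes gave 69.9% (68.7 to 71.0) and 34.0% (32.5 to 35.6). The thinned T barcodes numbered 186 and 1193, at median depths of 2013 and 2375 UMIs before thinning, with 32 and 57 shallower ones left out. Serpina1a had 2 UMIs in these shCtrl T barcodes and 0 in the shSrsf10 ones, where 3 UMIs would be 0.769 CPM.

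In barcodes without keratin RNA, Trf was at 446 and 175 CPM in macrophage, 485 and 379 CPM in neutrophil and 168 and 74.3 CPM in T barcodes. As a percent of the tumour level this was 18.5% and 9.05%, 20.2% and 19.6%, and 6.98% and 3.84%. In macrophage barcodes there were 2.38 (1.86 to 3.07) Trf UMIs for each Rbp4 UMI in shCtrl. In shSrsf10 there were 55 Trf UMIs to 22 Rbp4 UMIs, a ratio with an interval from 1.4998 to 4.31. Tumour barcodes gave 0.818 and 0.778. In T barcodes the ratio was 1.01 (0.751 to 1.36) and 1.08 (0.913 to 1.28), with the tumour value inside the shCtrl interval and below the shSrsf10 interval. Neutrophil barcodes gave 1.13 (0.716 to 1.78) and 1.62 (1.12 to 2.35). Alb for each Rbp4 was 0.751 in shCtrl and 0.641 in shSrsf10 tumour barcodes. It was higher in macrophage barcodes, at 1.67 (1.29 to 2.18) and 1.23 (0.673 to 2.26), and in T barcodes, at 1.25 (0.941 to 1.66) and 0.929 (0.779 to 1.11). In neutrophil barcodes it was 0.897 (0.552 to 1.45) and 0.76 (0.485 to 1.18), with the tumour value inside both intervals. Clu for each Rbp4 was 0.319 (0.204 to 0.486) in shCtrl macrophage barcodes against 0.293 in shCtrl tumour barcodes. Thinned to 1000 UMIs, the share of macrophage barcodes with Trf was 36.0% (28.9 to 43.7) in shCtrl (172 barcodes) and 19.7% (11.2 to 30.9) in shSrsf10 (71 barcodes). Among T barcodes it was 15.6% (10.7 to 21.6) and 8.30% (6.80 to 10.0). Among the few neutrophil barcodes that deep it was 33.3% (11.8 to 61.6, 5 of 15) and 16.7% (7.48 to 30.2, 8 of 48). The source of this RNA was not tested.

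**Figure D5:**
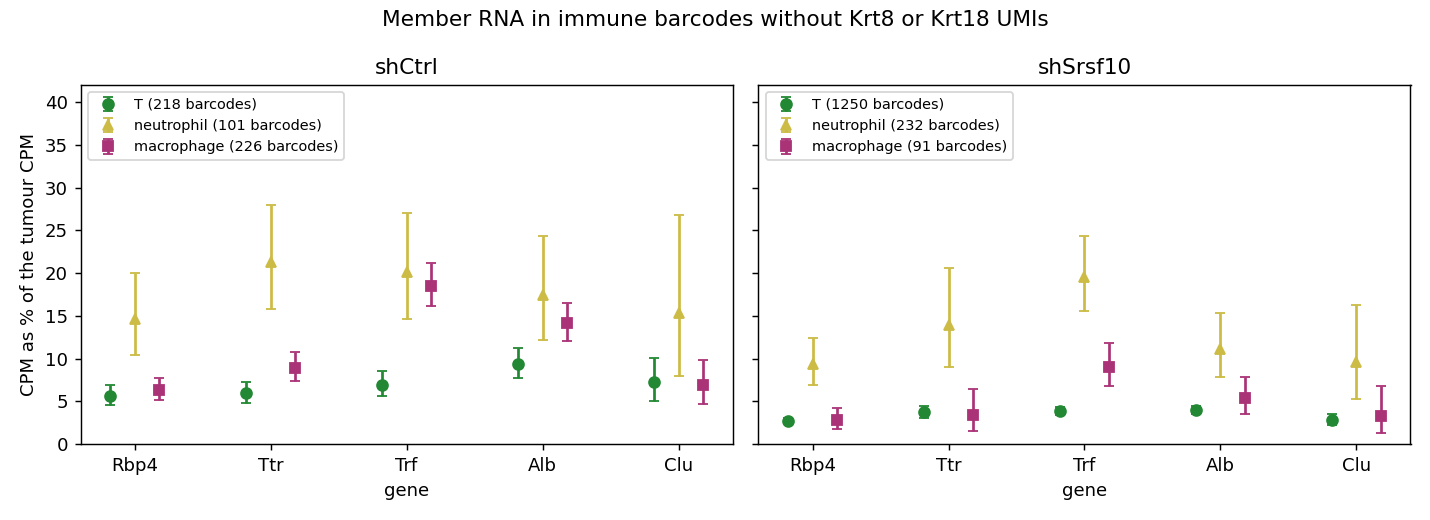
CPM of 5 members in T, neutrophil and macrophage barcodes without Krt8 or Krt18 UMIs, as percent of the CPM in tumour barcodes of the same library, with exact Poisson intervals at 95%. In macrophage barcodes Trf stands above Rbp4 in both libraries (18.5% against 6.37% in shCtrl, 9.05% against 2.82% in shSrsf10), while T barcodes lie between 2.76% and 9.38% for all 5 members.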

How the data were processed

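Tumour single-cell suspensions of 1 shCtrl and 1 shSrsf10 library were measured. The deposited matrices give UMI counts as whole numbers with no normalization, and per the submitters' processing notes were made with Cell Ranger 6.1.0 on genome build mm10. The lowest barcode total was 500 UMIs. Barcodes were 17 characters long, longer than usual 10x barcodes, for a reason not given in the sources used here. Counting settings were not given in the sources used here.

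UMIs were summed per library and class and scaled to CPM. CPM have exact Poisson intervals, ratios exact conditional binomial intervals and shares exact Clopper-Pearson intervals, at 95%. Of these, only the ratio intervals were tried on simulated sums. Those sums held counting error alone, so counts that clump in few barcodes were not covered. UMIs do not remove all amplification or capture effects, so intervals cover counting error only. At these depths a count of 3 UMIs is 0.0224 CPM in shCtrl tumour barcodes. Thinning drew UMIs without replacement with seed 1. The groups come from the sample titles, and no test or pairing was made.

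The members and the lists were chosen with earlier results of these data known. All members were named. List genes were named from those with the largest ratios (at most 4 a list by that rule, not all printed). Others were picked for what they encode or for their level after their values were seen. The 5 genes most correlated with the summed members were also named. Splits by Apoa1 and by interferon RNA describe barcodes only. Positions came from GENCODE vM21 on GRCm38, promoters from RefSeq. Python 3.11.15, numpy 2.4.6, scipy 1.17.1 and pandas 2.3.3 were used. Alternatives covered scaling, depth, barcode rules, barcodes with immune or hepatocyte marker RNA, and barcodes in both libraries.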

Additional observations from a re-analysis of the deposited data

Results flagged for a closer look

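In barcodes that passed the macrophage rule, Serpina1a went against the tumour barcodes, with a log2 ratio of 1.30 (0.77 to 1.84) against -1.58. It was singled out because the effect pointed the other way in the 2 classes, and the difference itself was not tested. The RNA came almost wholly from 1 barcode in each library: 41 of 50 UMIs in shCtrl and 79 of 81 in shSrsf10. The shSrsf10 barcode held 102055 UMIs in all, 207 of Krt8 and Krt18 and 632 of mature hepatocyte markers, and it is also the tumour barcode with most Serpina1a.

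Barcodes that met none of the class rules (2517 in shCtrl and 1337 in shSrsf10) carried member RNA at a summed level of 10303 CPM and 6260 CPM, against 12300 and 8241 CPM in tumour barcodes. Their median depths were 1294 and 1136 UMIs, and 587 and 278 of them held at least 5 UMIs of Krt8 and Krt18. These barcodes enter no comparison, and what they are was not tested.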

How the results depend on the processing

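Over 12 alternatives each member kept its direction, Ttr, Spp2, Ambp and Serpina1a stayed past 1.5-fold and the other 6 short of it. Some alternatives could change little. Centring moved all ratios alike, the mitochondrial limit removed 3 shCtrl and 2 shSrsf10 tumour barcodes, and the shared barcode setting removed 43 and 32. Serpina1a moved most, from -2.49 to -1.24. Ttr ran from -1.71 to -1.54, Spp2 from -1.69 to -1.55, Ambp from -1.43 to -1.29 and Lect2 from 0.45 to 0.55. Depth ranges and interferon bins were not among the 12 alternatives. Serpina1a ran from -2.79 to -0.84 across depth ranges and from -3.63 to -0.25, short of 1.5-fold, across interferon bins. Ahsg ran from -0.06 to 0.63 and from -0.48 to 0.58, and Rbp4 changed sign to 0.07 at 0 interferon UMIs. The members' median log2 ratio of -0.41 became -0.35 when centred on the median gene and -0.43 without mitochondrial and ribosomal protein genes. It was -0.37 in barcodes of 10000 to 40000 UMIs and -0.34 without Serpina1a. Without barcodes that held Cd3 or C1q UMIs or met the neutrophil rule it was -0.39. In T barcodes the summed level of 44.6% and 43.4% of the tumour level became 6.81% and 3.44% with 0 keratin UMIs, and 17.7% and 11.8% as a mean over barcodes. The background share of genes 1.5-fold higher was 14.05% with at least 1 UMI in each library and 4.67% with a minimum of 200 UMIs, and that of lower genes 15.7% and 10.6%. The hepatocyte marker, shared barcode, top barcode, keratin-free macrophage and neutrophil, and Serpina1a settings were added after seeing the data. No paired analysis was possible because each group has 1 library and no test was made. One library a group means that animal, dissociation and library differences cannot be told apart from the hairpin, and fewer tumour cells of a kind cannot be told apart from less RNA per cell in sums over barcodes.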
